A study of Drosophila melanogaster with 4 samples.

Results

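ZW5 regions found in both replicates were the regions of the combined ZW5 list that overlapped, by at least 1 bp, an enriched region of replicate 1 and an enriched region of replicate 2 on the same sequence. There were 275 of them among the 5135 regions of the combined list, which is 5.36%. The data are chromatin immunoprecipitation and sequencing (ChIP-seq), in which DNA crosslinked to a protein is recovered with an antibody, here against ZW5, and enriched stretches of the genome are called against an input library. The chromatin came from Drosophila melanogaster embryos aged 14 to 16 h, of the wild-type Oregon-R strain, which all 4 libraries (2 ChIP and 2 input) share. Whole embryos were used, so the regions belong to no single cell type. The labels do not say whether the 2 replicates came from separate embryo collections.

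ZW5 (zeste-white 5) is a zinc-finger DNA-binding protein of Drosophila. It is known for binding scs, a boundary element at a heat shock locus. Boundary elements, also called insulators, can block an enhancer from acting on a promoter when they lie between the pair, and pairs of them can hold a chromatin loop. Each site where such a protein is bound is seen in ChIP-seq as a region wider than the bound sequence itself, since the recovered fragments extend to either side.

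The lists held 673 regions for replicate 1, 1057 for replicate 2 and 5135 for the combined list. The regions found in both replicates drew in 287 regions of replicate 1 and 282 of replicate 2. All 284 replicate 1 regions that overlapped a replicate 2 region lay in 1 of the 275. Read depth is unknown, and the scale of the authors' score is not stated. A score of 1 divided the 275 into 157 strong and 118 weak regions, a boundary chosen with the scores known. All 275 lay on X or on an arm of chromosome 2 or 3 (2L, 2R, 3L and 3R). The remaining 4860 regions of the combined list, of which 4562 lay on these arms, form the background below and are called the rest. The regions were chosen by the positions of the called regions in the 3 lists, which come from the same libraries as their scores and widths, so these are given as a description with no test.

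The 275 regions spanned nearly the whole range of scores and fell into a strong and a weak class. Combined scores ran from 0.231 to 4.93 with a median of 1.92 and quartiles of 0.474 and 3.13. In replicate 1 the scores of the same regions ran from 0.302 to 4.60 with a median of 1.88, and in replicate 2 from 0.278 to 5.28 with a median of 2.37. A score from 0.25 to 0.5 was held by 73 regions and one from 0.5 to 1 by 43. Only 21 scored from 1 to 2, while 60 scored from 2 to 3, 61 from 3 to 4 and 15 from 4 to 5. The strong regions had a median of 2.96 and the weak ones of 0.440. The rest had a median of 0.387 and quartiles of 0.342 and 0.432, so the weak median lay just above its upper quartile.

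A score of at least 1 was held by 157 of the 275 regions (57.1%, 95% Wilson interval 51.2 to 62.8), against 6.54% of the whole combined list and 4.16% of its regions on the 5 arms. The rule favours high scores, so nothing is read from that difference. The regions found in both replicates took up 1.69% of combined-list scores from 0.25 to 0.5, 11.5% from 0.5 to 1 and 14.1% from 1 to 2. They took up 61.9% from 2 to 3, 81.3% from 3 to 4 and all 15 from 4 to 5. These shares are of the whole list, and none of the 275 lay off the 5 arms. Of scores of at least 1, they held 157 of 336 (46.7%) in all and 157 of 201 (78.1%) on these arms. The 53 highest scores of the combined list were all among them, and the weakest of them ranked 5088. Of the 100 highest scores they held 85 in the combined list, 95 in replicate 1 and 99 in replicate 2.

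High scores outside the 275 had another form. The highest of them was 3.38, and 179 regions of the rest reached a score of 1, of which 44 lay on the 5 arms. Their median width was 1055 bp, and 149 of the 179 (83.2%) were narrower than 1301 bp, the narrowest region of either replicate. Of the 179, 129 (72.1%) shared their exact score, to 9 decimals, with another region of the combined list. Among scores under 1, so did 2455 of 4681 regions of the rest (52.4%). So did 15 of the 118 weak regions found in both replicates (12.7%). None of the 157 strong regions found in both replicates shared its score, which allows a share of up to 2.39% (upper Wilson limit), and none was narrower than 2307 bp.

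The strongest region lay on 3R at 19782710 to 19785874 of FlyBase release 5, the build used for all coordinates here. It scored 4.60 in replicate 1, 5.28 in replicate 2 and 4.93 in the combined list, rank 1 in each. Its width was 2923 bp in replicate 1 and 3189 bp in replicate 2, and the replicate 2 region reached 130 bp farther at the start and 136 bp farther at the end. The centres lay 3 bp apart. The next, on X at 15216202 to 15218784, scored 4.22, 4.92 and 4.57 in the same order, with centres 28 bp apart. The strongest region of 2R, at 17556104 to 17559490, scored 4.24, 4.87 and 4.46, with centres 73 bp apart. On 3L the strongest lay at 2779330 to 2783956 and scored 4.12, 4.64 and 4.30. On 2L it lay at 1971932 to 1975438 and scored 4.08, 4.59 and 4.32. Each of the 10 regions with the highest combined score was scored higher in replicate 2 than in replicate 1, and the combined score lay between the replicate scores or, for 3R 16645870 to 16649764 and 3L 5143792 to 5147070, just under the replicate 1 score.

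At the other end, the weakest region was 2R 18426444 to 18428238, which scored 0.456 in replicate 1, 0.358 in replicate 2 and 0.231 in the combined list. On 3R the weakest, at 9852142 to 9854070, scored 0.335, 0.278 and 0.247. The weakest on X, 14621036 to 14622732, scored 0.529, 0.689 and 0.289. The weakest on 2L, 7422646 to 7424634, scored 0.361, 0.379 and 0.330, and the weakest on 3L, 21814810 to 21816794, scored 0.336, 0.351 and 0.333. In these 5 regions the combined score was under both replicate scores. The same was true of 72 of the 118 weak regions and 32 of the 157 strong ones.

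Scores of the same region moved together in the replicates. Each region was paired with its largest overlap in each replicate. Spearman's rho between replicate 1 and replicate 2 scores was 0.952 over the 275 (Pearson's r 0.986), 0.960 over the 157 strong and 0.493 over the 118 weak, whose scores span a much narrower range. These are correlations across regions that share both libraries, given without a test. By arm, rho ran from 0.934 on 2L (n = 70) to 0.970 on 3L (n = 47) among the 4 autosomal arms and was 0.830 on X (n = 29). X had the smallest share of strong regions, 10 of 29 (34.5%, 95% Wilson interval 19.9 to 52.7), and 3L the largest, 31 of 47 (66.0%, interval 51.7 to 77.8).

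Replicate 2 gave the higher score in most strong regions. It was higher in 151 of 157 (96.2%), by a median of 0.535, and the difference was 0.503 ± 0.228 (SD over 157 regions, which share both libraries and are not replicates). Among weak regions it was higher in 74 of 118 (62.7%), by a median of 0.0505, and the difference was 0.0906 ± 0.211 (SD over 118 regions), a spread close to that of the strong regions. How the scores of each list were made and normalized is not stated, so the size of this difference cannot be read as a difference in binding. The largest drop from replicate 1 to replicate 2 was that of the widest region, 3R 21876594 to 21886584, at 3.64 in replicate 1 and 3.23 in replicate 2. There replicate 2 had 2 regions, and the other one scored 5.09.

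**Figure D1:**
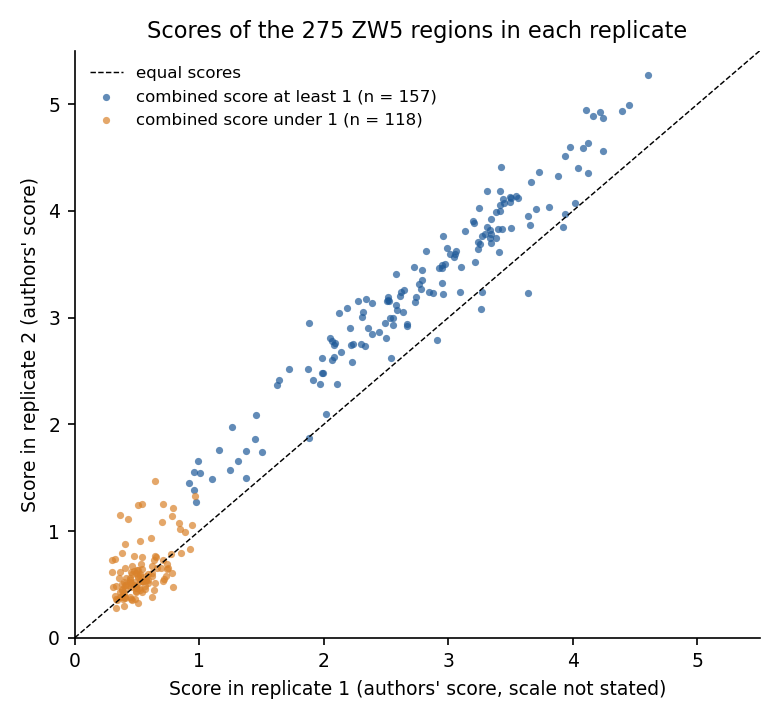
Score of each of the 275 regions in replicate 1 (x axis) and in replicate 2 (y axis), both the authors' score, with 1 point per region and a dashed line of equal scores. Strong regions, in blue, lie above the line in 151 of 157 cases, and weak ones, in orange, gather around it under a score of 1.5.

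Width rose with score among the regions found in both replicates and fell with score in the rest. The 275 had a median width of 2773 bp in the combined list, 2378 bp in replicate 1 and 2563 bp in replicate 2, from 1503 to 9991 bp in the combined list. All 275 were at least 1301 bp wide, against 45.2% of the combined list, a difference that the rule favours. Spearman's rho between width and score was 0.734 in the combined list, 0.813 in replicate 1 and 0.805 in replicate 2, each over the same 275 sites. In the 4860 regions of the rest it was -0.399, in the 2046 of them at least 1301 bp wide it was 0.116, in the 282 overlapped by replicate 1 only it was -0.173, in the 626 overlapped by replicate 2 only it was -0.0107, and in the 3952 overlapped by neither it was -0.418. Since a wide region overlaps others more easily, width took part in the choice of the 275. No test of the difference is given.

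Within the 2 classes the relation was smaller. Among strong regions rho was 0.287 in the combined list, 0.488 in replicate 1 and 0.370 in replicate 2. Among weak regions it was 0.676, 0.262 and 0.584. By arm rho in the combined list lay between 0.696 on 3R and 0.780 on X. The median width of strong regions was 3279 bp and that of weak regions 2121 bp.

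The narrow edge of the distribution also moved up with score. The narrowest 10% of widths ended at 1817 bp for scores from 0.25 to 0.5, at 2080 bp from 0.5 to 1, and at 2329 bp from 1 to 2. It ended at 2474 bp from 2 to 3, 2741 bp from 3 to 4 and 3047 bp from 4 to 5, the last over 15 regions. The medians of the same bands were 2027, 2259, 2771, 3142, 3443 and 3387 bp. In the rest, the median was 1239 bp for scores from 0.25 to 0.5, 1087 bp from 1 to 2 and 1001 bp, the narrowest width in the list, from 3 to 4. The widths above the narrow edge were spread out, up to 9711 bp for scores from 2 to 3 and 9991 bp from 3 to 4. The narrowest of the 275, 3R 735784 to 737286, was 1503 bp wide with a score of 0.271, and measured 1388 bp in replicate 1 and 1321 bp in replicate 2.

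**Figure D2:**
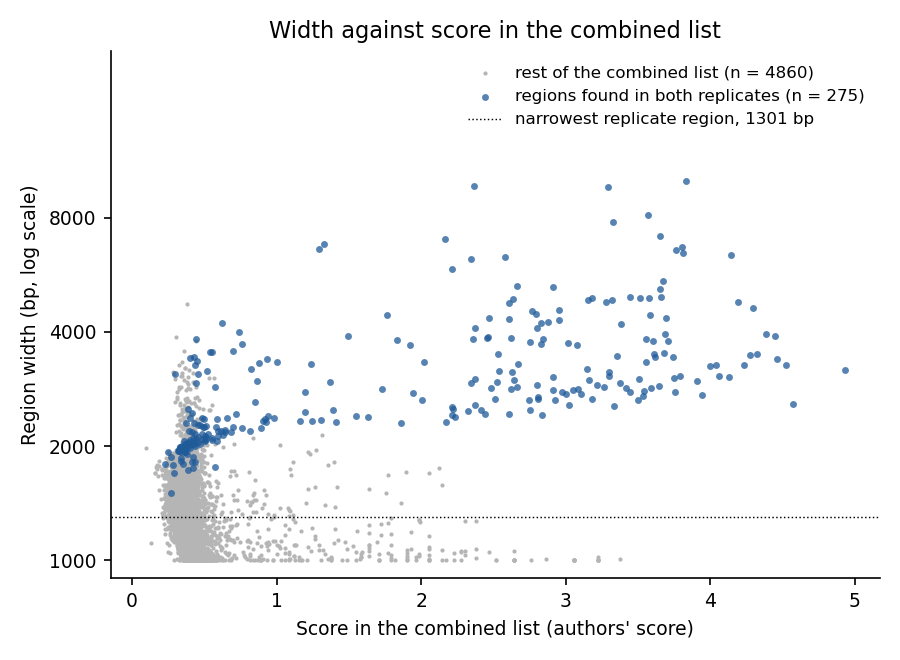
Width of each combined-list region in bp on a log scale (y axis) against its combined score (x axis), with the 275 regions found in both replicates in blue and the 4860 others in grey. The blue points rise from about the 2027 bp median at scores of 0.25 to 0.5, while the high scores among the grey points lie mostly under the dotted line at 1301 bp.

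The replicates placed the centres of the shared regions close together. The median absolute distance between replicate centres was 66.0 bp, with quartiles of 24.8 and 160 bp, which is small beside the median width of 2378 bp in replicate 1. Centres lay within 50 bp of each other in 117 regions (42.5%, 95% Wilson interval 36.8 to 48.5), within 250 bp in 225 (81.8%, interval 76.8 to 85.9) and within 1000 bp in 265 (96.4%, interval 93.4 to 98.0). The signed distance, replicate 2 minus replicate 1, had a median of -1.50 bp, with 136 regions above 0 and 139 below.

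Edges differed more than centres, and in opposite directions. A centre offset is the mean of the start and end offsets, so opposite edge offsets shorten it by construction. The replicate 2 start lay upstream of the replicate 1 start, at the lower coordinate, in 213 of 275 regions, with a median offset of -70.0 bp. The replicate 2 end lay downstream in 203 of 275, with a median offset of 76.0 bp. Replicate 2 regions were wider than their partner in 227 of 275, by a median of 146 bp over all 275. The replicate 1 region lay wholly within the replicate 2 region in 161 cases (58.5%, interval 52.6 to 64.2), and the reverse held in 17 (6.18%, interval 3.90 to 9.68). Start and end offsets were nearly unrelated across regions, with a Spearman's rho of 0.0216 (n = 275).

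Strong regions were placed with less scatter than weak ones. The median absolute centre distance was 50.5 bp in the 157 strong regions and 89.5 bp in the 118 weak ones, or 1.63% and 4.50% of the mean replicate width. The replicates overlapped over a median of 93.4% of their joint span in strong regions and 85.8% in weak ones. The overlap reached 90% of the joint span in 108 strong regions (68.8%, interval 61.2 to 75.5) and in 41 weak ones (34.7%, interval 26.8 to 43.7). The replicate 1 region lay within the replicate 2 region in 120 of 157 strong (76.4%) but 41 of 118 weak regions (34.7%). In the far tails the classes were not set apart. Centres lay within 500 bp of each other in 141 of 157 strong regions (89.8%, interval 84.1 to 93.6). The same held in 109 of 118 weak ones (92.4%, interval 86.1 to 95.9). Of the 25 regions whose centres differed by more, 16 were strong, while strong regions were 57.1% of all 275. In 8 of the 25, all strong, a replicate had more than 1 region, and only its largest overlap was compared.

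**Figure D3:**
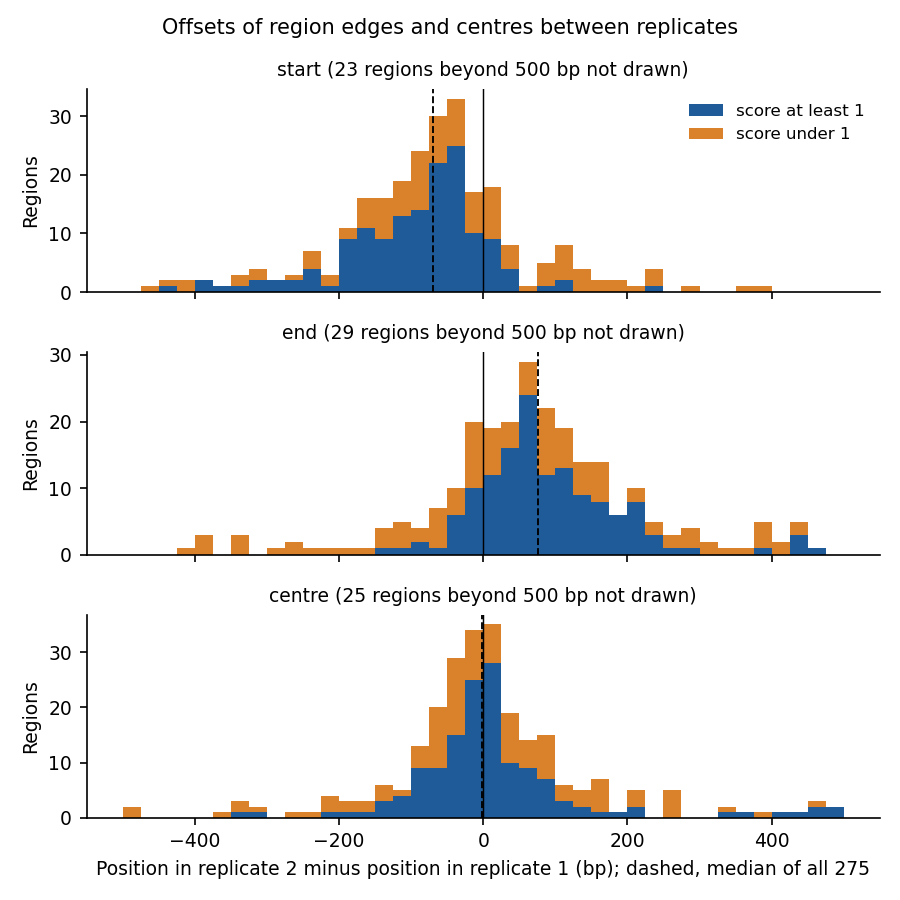
Histograms of the start, end and centre of each region in replicate 2 minus the same position in replicate 1, in bp (x axis), as numbers of regions per 25 bp bin (y axis), stacked by strong (blue) and weak (orange). Dashed lines mark the medians of -70.0 bp for starts, 76.0 bp for ends and -1.50 bp for centres, and 23, 29 and 25 regions beyond 500 bp are not drawn.

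The combined regions were wider than the replicate regions they overlapped. Each of the 275 was wider than its replicate 1 partner, by a median of 308 bp, and 232 were wider than their replicate 2 partner. Combined regions held the whole replicate 1 region in 252 cases (91.6%) and the whole replicate 2 region in 160 (58.2%). The median absolute centre distance was 55.0 bp between the combined list and replicate 1 and 38.0 bp between the combined list and replicate 2. The combined score also ordered the weak regions more as replicate 2 did, with a Spearman's rho of 0.849 against 0.612 with replicate 1 (n = 118).

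A small group of broad regions joined sites that a replicate had kept apart. In 261 of the 275 each replicate had exactly 1 region, in 7 replicate 1 had 2 and replicate 2 had 1, in 2 the reverse, and in 5 each had 2. These 14 were all strong, and their combined widths ran from 4571 to 9991 bp with a median of 6926 bp, against 2703 bp for the other 261. Their replicate centres lay a median of 1036 bp apart, against 60.5 bp. Only the largest overlap in each replicate was compared, so a part could be set against the whole, which lengthens this distance by construction. The 14 made up 8 of the 25 regions with centres over 500 bp apart.

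The strongest of the 14, 3R 15852538 to 15858916, was seen as the same pair of sites in each replicate. Replicate 1 gave 2.95 at 15852575 to 15855312 and 4.39 at 15855655 to 15858784, and replicate 2 gave 3.56 at 15852534 to 15855333 and 4.94 at 15855557 to 15859017. The combined list gave 1 score of 4.14 to the whole, under the stronger site in each replicate. The second, 3R 21876594 to 21886584, was 1 region of 9300 bp in replicate 1, while replicate 2 divided it into 21876642 to 21879885 with a score of 5.09 and 21879927 to 21886132 with 3.23. The third, 2R 20666162 to 20672612, was divided in replicate 1, with scores of 4.01 and 2.50, and whole in replicate 2, with 4.07.

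In 3 of the 275 the replicate regions met the combined region but not each other, so these 3 were not the same called region in both replicates. They were 2R 11918060 to 11921160, X 2030032 to 2032068 and X 14621036 to 14622732, with combined scores of 0.294, 0.424 and 0.289. The replicate regions stood 1075, 198 and 167 bp apart, and their centres 2514, 1645 and 1533 bp. These 3 also had the smallest overlap with a replicate, at 494, 185 and 193 bp in the same order, and so stood just inside the rule. Just outside it were 2L 20379970 to 20381004, with a score of 0.344 and 48 bp from the nearest region of the replicate it missed, 3R 4174424 to 4175978, with 0.350 and 80 bp, and 2L 20378406 to 20379926, with 0.410 and 97 bp. Those on 2L had the same replicate scores, 0.295 in replicate 1 and 0.548 in replicate 2, so they may not be separate near misses. The one on 3R had the replicate 1 score, 0.842, of 3R 4172068 to 4174392, which is among the 275. In all, 11 regions overlapped by a single replicate lay within 500 bp of a region of the other.

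Most regions found in both replicates had no other such region within 10 kb, with a minority in tight groups. Spacing depends on the number of regions per Mb, which was 2.31 over the 5 arms and differed between arms. No random placement was made for comparison. The median distance from a centre to the nearest other centre among the 275 was 94.8 kb, with quartiles of 11.98 and 261 kb. A neighbour within 10 kb was present for 55 regions (20.0%, 95% Wilson interval 15.7 to 25.1), within 20 kb for 90 (32.7%) and within 100 kb for 139 (50.5%). The most isolated was X 422786 to 424960, with a score of 0.644 and its nearest neighbour 1607 kb away. It was followed by 3R 23762062 to 23764096, with a score of 0.423 and 1070 kb, and 2R 7344648 to 7346722, with 0.506 and 978 kb. These 3 were weak regions, each called in both replicates with centres 47, 70 and 96.5 bp apart.

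Tight groups were most common on 2L and were not found on X. The share with a neighbour within 10 kb was 29 of 70 on 2L (41.4%, interval 30.6 to 53.1), 17 of 78 on 3R (21.8%, interval 14.1 to 32.2) and 5 of 47 on 3L (10.6%, interval 4.63 to 22.6). It was 4 of 51 on 2R (7.84%, interval 3.09 to 18.5) and 0 of 29 on X, which allows up to 11.7% (upper Wilson limit). The median distance was 16.6 kb on 2L, 50.8 kb on 3R, 115 kb on 2R, 192 kb on X and 212 kb on 3L. The interval of 2L does not overlap those of 2R, 3L and X, and these intervals treat regions as independent, which neighbours are not. The 55 regions formed 22 groups, 14 of 2 regions, 5 of 3 and 3 of 4, of which 11 lay on 2L, 7 on 3R and 2 each on 2R and 3L.

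The closest pairs were separate regions in both replicates. On 2L, 1168780 to 1171244 and 1171562 to 1174302 had 317 bp between them. The first scored 0.921 in replicate 1 and 1.46 in replicate 2, and the second 2.72 and 3.47. They belong to a group of 4 over 16.5 kb, from 1162386 to 1178862, whose combined scores ran from 1.19 to 3.65. On 2L, 4966728 to 4970232 and 4970410 to 4972652 had 177 bp between them, with combined scores of 2.53 and 0.491. Also on 2L, 12702920 to 12705970 and 12706546 to 12709030 had 575 bp between them, with 2.91 and 1.39. The other groups of 4, singled out for their size, were 2L 18675460 to 18700148, with scores from 2.66 to 3.65, and 3R 12060316 to 12081756, with scores from 0.426 to 2.52.

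Each of the 22 groups held a strong region. In 7 groups all regions were strong, in 15 strong and weak regions were mixed, and in 0 all were weak. Strong regions were 57.1% of all 275, so nothing is read from these counts. A strong region found in both replicates lay within 10 kb of 17 of the 118 weak regions found in both replicates (14.4%, 95% Wilson interval 9.19 to 21.9). The share was alike for the strong regions themselves, with another strong region within 10 kb of 23 of 157 (14.6%, interval 9.96 to 21.0). Among the weak regions of the rest on the 5 arms the share was 2.7%, and among those of the rest at least 1301 bp wide it was 3.56% (n = 1967, interval 2.83 to 4.47). It was 4.15% for weak regions overlapped by replicate 1 only (n = 265, interval 2.33 to 7.28) and 4.84% for replicate 2 only (n = 620, interval 3.41 to 6.82). For weak regions overlapped by neither it was 2.23% (n = 3633, interval 1.80 to 2.76).

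These 17 weak neighbours had medians near those of the other 101. Their median combined score was 0.467 against 0.435, their median width 2275 bp against 2099 bp, and their replicate centres lay a median of 111 bp apart against 85.0 bp. The gap from the facing edge to the strong region ran from 177 to 6465 bp with a median of 2349 bp, and was under 1000 bp in 5. The strong neighbour scored from 1.33 to 4.30. Whether signal from the strong region reaches the weak one was not tested.

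Other ZW5 regions lay about as close to the 275 as to each other. A region of the rest lay within 10 kb of 160 of the 275 (58.2%, interval 52.3 to 63.9), against 53.5% of the rest itself. The median distance to the nearest region of the rest was 8.03 kb from the 275 and 9.02 kb from the rest.

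**Figure D4:**
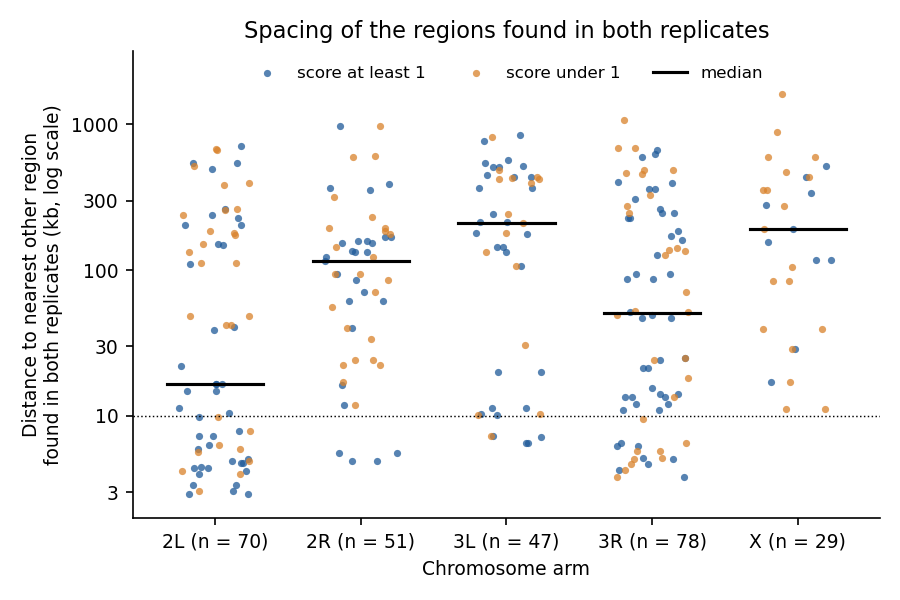
Distance in kb, on a log scale (y axis), from the centre of each region found in both replicates to the nearest other such centre, by chromosome arm (x axis), with strong regions in blue, weak ones in orange and a bar at the median of each arm. Of the points under the dotted line at 10 kb, 29 lie on 2L and none on X.

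The regions found in both replicates were sparsest on X, where strong regions in particular were fewer per Mb than on the autosomal arms. Their density was 3.04 per Mb on 2L (95% exact Poisson interval 2.37 to 3.84) and 2.80 on 3R. It was 2.41 on 2R (interval 1.80 to 3.17) and 1.91 on 3L (interval 1.41 to 2.55). On X it was 1.29 (interval 0.866 to 1.86), which overlaps the intervals of 2R and 3L. Over the 4 autosomal arms it was 2.55 per Mb (interval 2.24 to 2.89). Strong regions stood at 0.446 per Mb on X (interval 0.214 to 0.820) and at 1.52 per Mb on the autosomal arms (interval 1.29 to 1.79). Weak regions stood at 0.847 per Mb on X (interval 0.510 to 1.32) and 1.02 per Mb on the autosomal arms (interval 0.833 to 1.25), intervals that overlap. The rest was not sparse on X, at 38.2 per Mb against 32.6 on 2L and 42.8 on 3R. The median score of the rest was 0.439 on X and 0.374 over the autosomal arms. Whether a score of 1 means the same on X as on the other arms was not tested. Read depth is unknown for X and for the other arms.

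Along the arms, the position of the regions found in both replicates differed from arm to arm. Each arm was divided into 3 parts of equal length, named centromeric, middle and distal by their distance from the centromere. On 2L the distal part held 33 regions (4.30 per Mb, 95% exact Poisson interval 2.96 to 6.04) and the centromeric part 13 (1.69 per Mb, interval 0.902 to 2.90). On 2R these parts held 25 (3.55 per Mb, interval 2.30 to 5.24) and 12 (1.70 per Mb, interval 0.880 to 2.97), and on 3L 20 (2.44 per Mb) and 13 (1.59 per Mb). On 3R the order was the other way, with 17 (1.83 per Mb, interval 1.06 to 2.93) in the distal part and 33 (3.55 per Mb, interval 2.44 to 4.98) in the centromeric part, of which 23 were strong. X held 5 in the distal part, 14 in the middle and 10 in the centromeric part. Of these pairs of outer parts, only those of 2L had intervals that did not overlap.

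Over the 5 arms together the parts were close, with 81 regions in the centromeric parts (2.04 per Mb, interval 1.62 to 2.54), 94 in the middle (2.37 per Mb, interval 1.91 to 2.90) and 100 in the distal parts (2.52 per Mb, interval 2.05 to 3.07). At a finer scale, the 10% of each arm next to the centromere held 15 of the 275 (1.26 per Mb, interval 0.705 to 2.08) and the 10% after it held 44 (3.70 per Mb, interval 2.69 to 4.96). The rest moved the same way there, from 29.9 per Mb (interval 26.9 to 33.2) to 43.4 per Mb (interval 39.7 to 47.3). The rest followed the same order as the 275 on 2L, with 28.2 per Mb in the centromeric and 39.2 in the distal part. It did so too on 3L, with 33.5 and 41.2 per Mb, and on 2R, with 41.6 and 43.4. Over the 5 arms together its centromeric parts held 36.3 per Mb and its distal parts 42.0. On 3R the outer parts of the rest were alike, with 41.7 and 41.8 per Mb, and on X its distal part was the densest, with 44.6 per Mb.

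Long stretches of each arm held none of the 275. The longest was on X, from 4001037 to 7953849, or 3.95 Mb, and held 160 regions of the rest. On 2L it ran from 15274735 to 18675459 (3.40 Mb, with 98 of the rest) and ended at the group of 4 named above. The longest on 3L was 2.20 Mb, on 3R 2.17 Mb and on 2R 1.85 Mb. Of the 122 windows of 1 Mb along the arms, 25 held none of the 275, and 9 of these 25 were among the 23 windows of X. The fullest window lay on 2L from 12 to 13 Mb, with 10 regions, and the fullest on 3R from 4 to 5 Mb, with 8.

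**Figure D5:**
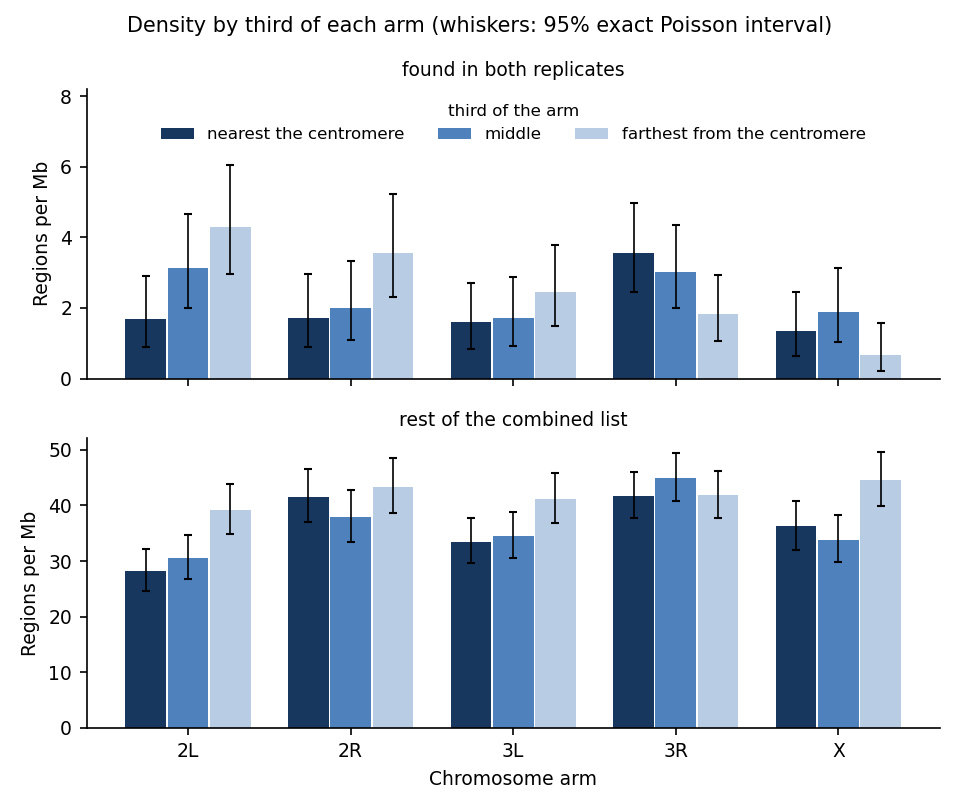
Regions per Mb (y axis) in 3 equal parts of each chromosome arm (x axis), above for the 275 regions found in both replicates and below for the rest of the combined list, with whiskers for the 95% exact Poisson interval. In the upper panel the part farthest from the centromere is the densest on 2L, at 4.30 per Mb, and also on 2R and 3L, but not on 3R or X.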

How the data were processed

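The analysis started from region lists of ZW5 ChIP-seq, 1 for each of 2 ChIP replicates and 1 combined list. Per the submitters' processing notes the aligner was Bowtie 0.12.7, and per the file headers the coordinates are those of FlyBase release 5. How regions were called, at what threshold, and how the combined list was made is not given in the sources used here. Each region carries a score, used as the authors deposited it. It ranked and described regions within a list, and correlations across lists are descriptions. Per the labels' description field, each input served as the input for the ChIP list of its own replicate number. Arm lengths are those of the file headers. Named regions were the extremes of score (overall and by arm), width, offset, spacing and overlap. This rule, the members, the score boundary of 1 and the 10 kb distance were chosen with earlier results of these data known. No chance test was run. Wilson and exact Poisson intervals cover counting error only. Genes and sequences at the regions were not analysed here, because the only annotation used is of another release. Alternatives covered the overlap rule, the score, the width and leaving out each replicate. The functions were tested on simulated data. Software was scipy 1.17.1, numpy 2.4.6, matplotlib 3.10.9 and pandas 2.3.3 under Python 3.11.15.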

Additional observations from a re-analysis of the deposited data

How the results depend on the processing

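Of 55 alternative values over 8 results, 31 stayed within the spread allowed (the interval, a factor of 1.5 for a count, or the SD between the replicates) and 24 moved. That SD was taken over the same sites in both replicates and was as small as 0.0053 for rho and 0.0099 kb for the spacing. Slight shifts in these 2 results therefore counted as moved, and the tally is no measure of stability for them. Of the 31, 7 came from a minimum width of 1301 bp, which could change nothing because every region met it. With a single replicate in the rule, by construction a wider choice, the number of regions ranged from 557 to 901, the share with a score of at least 1 from 17.8% to 29.3%, the median score from 0.387 to 0.435, rho of width and score from 0.548 to 0.657, the median spacing from 35.0 to 60.3 kb and the share on X from 14.7% to 15.3%. With each list limited to scores above its median, which removes weak regions by construction, 84.9% scored at least 1, the median score was 2.79, rho of width and score 0.475 and the spacing 149 kb. Under a rule that asked for a combined centre within 250 bp of a region centre in each replicate, which 206 regions met, rho was 0.864, the spacing 145 kb and the centre offset 49.8 bp. This rule shortens offsets by construction. With exactly 1 region in each replicate, rho was 0.742 and the spacing 111 kb. Offsets of starts were 102 bp and of ends 107 bp, and spacing between facing edges was 92.1 kb. The relation of width and score was positive in the 6 alternatives that could change it. Counting neighbours within 20 kb, an alternative added after the data were seen, gave 22.0% of weak regions beside a strong one, and the added boundaries of 0.8 and 1.5 gave 14.2% and 15.3%. No paired analysis was possible because neither input has regions among the lists used. With read depth unknown, the detection limit for weak regions is unknown too.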
